A study of Mus musculus with 16 samples.

Results

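The comparison set 8 libraries of assembled cells against 8 libraries of cells grown alone, and asked which genes changed with assembly in the same direction in both of the lineages that were mixed. It took all 16 of the 16 libraries of the series and 13406 of the 31663 entries of the deposited table, those that reached 1 FPKM (fragment counts divided by transcript length and by the library's mapped total) in at least 2 libraries. The lineages were GFP-positive mouse induced pluripotent stem cells (iPSC) and RFP-positive mouse trophectoderm stem cells (TSC, also written TSCC in the labels). The assembled groups were the iPSC part without BMP4, the iPSC part with BMP4, the TSC part without BMP4 and the TSC part with BMP4, each picked by its fluorescence from a structure that formed when both lineages were mixed. The groups grown alone were iPSC and TSC, each without and with BMP4, and they were handled in the same way. There were 2 libraries in each of the 8 groups. All groups shared a medium containing 5% Matrigel, 12.5 ng/ml FGF4 and 500 ng/ml heparin, and all were collected on day 3. BMP4, where used, was present during the final 24 hours, and its dose is not given in the sources. The libraries were made with Smart-seq2, a full-length cDNA method for very small amounts of RNA, from single colonies. The assembled parts were separated under a stereomicroscope and not sorted, so cells of the other lineage may have come with them.

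In the early mouse embryo the pluripotent epiblast and the neighbouring extraembryonic ectoderm signal to each other: the epiblast supplies FGF4 and Nodal, which keep trophoblast stem cells dividing, and the trophoblast returns BMP4, which patterns the epiblast. Stem cells of both kinds can be mixed in culture, where they sort out and adhere to each other. Assembly is therefore a change of neighbours, of signals and of shape at once, and the same change may act on both cell types or on only one of them.

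Oct4 separated the lineages in every library and Elf5 in most, whereas summed markers separated them less. Oct4 (Pou5f1), the core pluripotency factor, had 71.5, 80.9, 49.5 and 112 FPKM in the assembled iPSC parts and 326, 219, 299 and 175 FPKM in iPSC alone, against 0.137 to 13.2 FPKM in the assembled TSC parts and 0.0335 to 1.03 FPKM in TSC alone. Elf5, a defining factor of trophoblast stem cells, had 116, 159, 197 and 224 FPKM in the assembled TSC parts and 5.51, 11.6, 153 and 130.3 FPKM in TSC alone. Here and below the first pair of values in each set of 4 came from the libraries without BMP4 and the second pair from those with it. In the iPSC lineage Elf5 stood at 0.305, 0.393, 0.193 and 50.4 FPKM in the assembled parts and at 0 to 0.413 FPKM alone. Replicate 2 of the assembled, BMP4-treated iPSC part therefore held RNA of a TSC marker, and replicate 2 of the assembled TSC part without BMP4 held the most Oct4 of its lineage. The 8 iPSC markers fixed for this check summed to 385 to 882 FPKM in the assembled iPSC parts and 822 to 1151 FPKM in iPSC alone, and to 262 to 775 FPKM in the assembled TSC parts and 183 to 451 FPKM in TSC alone, so the assembled parts of both lineages overlapped. Utf1, a chromatin protein of pluripotent cells named here after its values were seen, made up much of these sums, with 335 ± 168 FPKM in the assembled iPSC parts and 469 ± 72 FPKM in iPSC alone, and 499 ± 247 FPKM in the assembled TSC parts and 242 ± 115 FPKM in TSC alone (SD, n = 4 each). The 9 TSC markers summed to 717 to 2153 FPKM in the assembled TSC parts and 2165 to 11502 FPKM in TSC alone, with the homeobox gene Rhox6, named likewise, at 494 ± 187 FPKM in the assembled TSC parts and 3768 ± 3337 FPKM in TSC alone (SD, n = 4 each), and to 86.7 to 673 FPKM in the assembled iPSC parts and 71.0 to 542 FPKM in iPSC alone. The part of such shifts in the results below was not tested. Cdx2, also a trophoblast factor, was low in all libraries of TSC origin, with 2.39 to 4.38 FPKM in the assembled parts and 0 to 6.24 FPKM alone. Markers of fibroblasts (13 genes) reached at most 5.67 FPKM in any library, those of endothelium and blood (13 genes) 3.51 FPKM and those of endoderm (8 genes) 3.64 FPKM, with 4 genes of each list at 1 FPKM or more in some library. Their summed levels were 3.44 to 8.04 FPKM in assembled and 2.23 to 8.41 FPKM in lone libraries for fibroblasts, 2.60 to 7.41 and 1.66 to 5.38 FPKM for endothelium and blood, and 0.998 to 3.47 and 0.151 to 5.08 FPKM for endoderm. Replicate 1 of TSC alone with BMP4 stood apart from the other libraries of cells grown alone: on the second principal component it scored 18.5, among the assembled libraries (13.2 to 41.5), whereas the other 7 lone libraries scored -59.3 to -15.2. Where leaving out 1 of these 3 libraries, or another one, moves a count given below by over 1.5 times, the count without it, or the number of omissions in which a call was kept, follows. The read depth is unknown because the table holds FPKM and no counts, so no counting interval can be given. In these bulk libraries fewer cells of a type and less RNA per cell cannot be told apart.

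Assembly was accompanied by a broad change of which the larger part was a fall. Differences are given as assembled minus alone in log2(FPKM + 1) ± SE, from a limma fit with lineage and BMP4 as covariates, which makes the fold of weakly expressed genes look smaller than it is. At a Benjamini-Hochberg adjusted p under 0.05, 3328 of the 13406 genes (24.8%) differed. Of these, 3320 (24.8%) had the same sign in both lineages and are called shared genes here: 979 rose (7.3% of the genes tested) and 2341 fell (17.5%). The other 8 passed in the pooled fit although the lineages moved in opposite directions. The pooled term averages both lineages, so genes that moved in opposite directions rarely pass it. The agreement in sign therefore follows largely from the selection and does not measure how common the response was. The median shared rise was 0.70 and the median shared fall -0.74, and 644 of the shared genes changed at least 2-fold (179 higher, 465 lower). In 2981 of them (860 higher, 2121 lower) the sign was the same in all 4 strata of lineage and BMP4. Just inside the threshold lay Ubxn7 (-0.53, adjusted p = 0.0498) and Ptgr1 (-0.62, 0.0499), and just outside it Bnip1 (-0.44, 0.0501) and Cdkn2b (-0.78, 0.0502).

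The balance of rises and falls depended on how the libraries were scaled. As deposited, the median difference over all genes tested was -0.10, and 29.5% of the shared genes rose. With upper quartile rescaling the median was 0.06 and 58.5% rose (1942 higher, 1380 lower), with quantile normalization 47.4% rose (1539 and 1706), with genes of predicted names left out and totals rescaled the median was -0.21 and 18.2% rose (649 and 2910), and with a correction for GC content and transcript length 47.2% rose (1582 and 1773). Of the 3320 shared genes, 2359 to 2854 were also shared under these 4 scalings. None of the shared genes named below turned its direction under any of them.

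**Figure D1:**
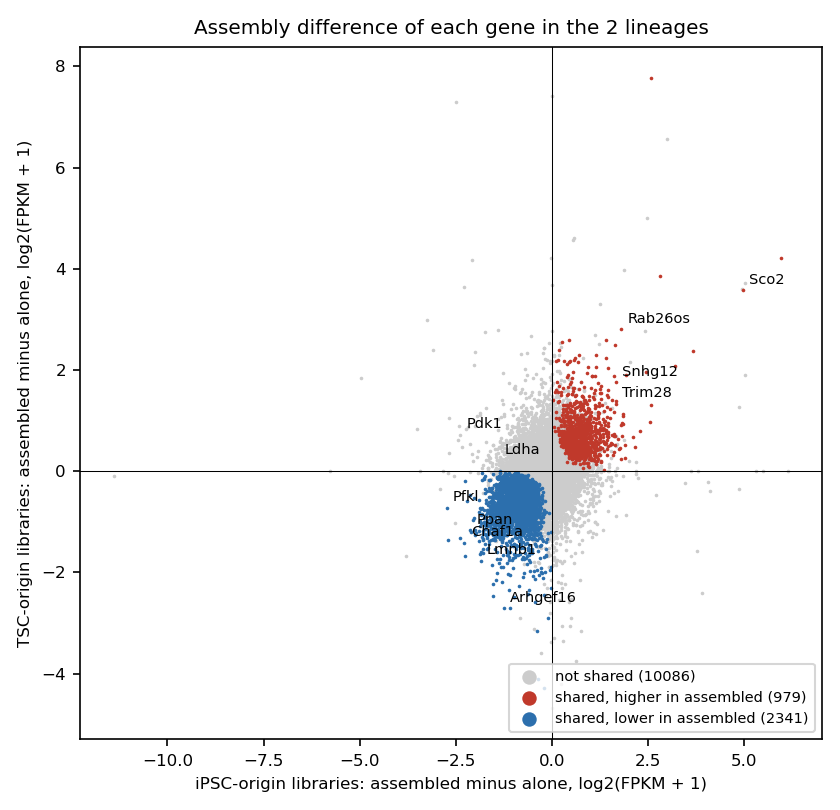
Each point is 1 of the 13406 genes, placed by its assembled minus alone difference in log2(FPKM + 1) in the iPSC-origin libraries (horizontal) and in the TSC-origin libraries (vertical), with 4 assembled and 4 lone libraries behind each. Shared genes, coloured, lie by their definition at the upper right (979) and lower left (2341), while Pdk1 and Ldha lie at the upper left.

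The lineages contributed unequally, though their order depended on the libraries used. Tested within a lineage, 2960 genes passed in the iPSC-origin libraries (602 higher and 2358 lower, 22.1% of those tested) and 1102 in the TSC-origin libraries (386 and 716, 8.22%). Those that passed in both with the same sign numbered 482 (107 higher, 0.798%, and 375 lower, 2.8%; 3.6% in all), which is 16.3% of the iPSC calls and 43.7% of the TSC calls, and 3 passed in both with opposite signs. The count of 482 moved by over 1.5 times in 11 of 16 omissions of a library. It was 1174 without replicate 1 of TSC alone with BMP4, and 99 to 233 without replicate 2 of the assembled TSC part without BMP4, either replicate of the assembled TSC part with BMP4, either replicate of TSC alone without BMP4 or replicate 2 of TSC alone with BMP4. It was 272 to 302 without replicate 1 of the assembled iPSC part without BMP4, replicate 2 of iPSC alone without BMP4 or either replicate of iPSC alone with BMP4. The TSC count of 1102 was 2937 without replicate 1 of TSC alone with BMP4. In the omissions that gave 99 to 233 above, that TSC count was 185 to 576. The iPSC count of 2960 was 1890 without replicate 2 of the assembled iPSC part without BMP4, and 1960 without replicate 1 of iPSC alone with BMP4. With only the libraries without BMP4 the order reversed, at 1519 iPSC and 2492 TSC calls. Both percentages of calls rest on these counts. Across the 13406 genes the iPSC and TSC differences had a Spearman correlation of 0.42 (Pearson 0.37), a description over genes that share libraries and scaling, and 64.1% had the same sign. In 645 genes (4.81%) the 4 assembled and the 4 lone libraries did not overlap in either lineage, of which 101 were higher (0.753%) and 544 lower (4.06%), and 643 of the 645 were shared genes. Whether the 2 libraries of a group are separate cultures is not stated, and the p-values therefore cover the spread among these libraries and nothing wider.

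Genes that rose with assembly in both lineages included the noncoding hosts of small nucleolar RNAs. Snhg12, a spliced noncoding transcript whose introns hold snoRNAs, had 49.2, 50.4, 43.4 and 45.2 FPKM in the assembled iPSC parts and 13, 19.8, 14.2 and 10.4 FPKM in iPSC alone. It had 21, 39.4, 37.5 and 48.3 FPKM in the assembled TSC parts and 7.24, 11.4, 12.1 and 8.48 FPKM in TSC alone. The assembled and lone libraries were separate in both lineages, and the difference was 1.72 ± 0.17, adjusted p = 6.27e-05. Rab26os, a noncoding transcript that in the GENCODE annotation overlaps Rab26 on the other strand and holds Snord60, had 104, 78.5, 60.3 and 82.4 FPKM in the assembled iPSC parts and 29.8, 24.2, 15.5 and 20.7 FPKM in iPSC alone. In the TSC lineage it had 52.6, 31.8, 24.1 and 50.0 FPKM in the assembled parts and 5.59, 6.32, 4.99 and 2.26 FPKM alone. The difference was 2.31 ± 0.22, adjusted p = 6.27e-05, again without overlap, while Rab26 itself stayed low, at 0.248 to 2.83 FPKM in assembled and 0 to 4.51 FPKM in lone libraries (-0.20 ± 0.25, adjusted p = 0.598). Snhg3 had 251 to 378 FPKM in the assembled iPSC parts and 94.3 to 178 FPKM in iPSC alone, and 129 to 149 FPKM in the assembled TSC parts and 27.2 to 67.8 FPKM in TSC alone (1.44 ± 0.18, adjusted p = 0.000154). In the annotation Snhg3 shares its strand and part of its span with Rcc1, the exchange factor of the Ran GTPase, which fell (-1.30 ± 0.20, adjusted p = 0.000484). Whether the authors' counting split reads between them was not tested. Of the 8 host genes tested (names beginning Snhg, and Gas5, a group chosen after the values were seen), 6 rose and 0 fell, beside 7.3% and 17.5% of all genes. The number that rose was 3 without replicate 1 of the assembled iPSC part without BMP4, 3 without replicate 2 of TSC alone with BMP4, and 4 without the pair of libraries with genes of the other lineage. Under the 4 other scalings 5 or 6 rose and 0 fell.

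Host transcripts of snoRNAs and the mRNAs of ribosomal proteins are known for starting with a C followed by a run of pyrimidines, the terminal oligopyrimidine start. The promoter windows of Snhg12 and Rab26os, 250 bases before to 50 after the annotated start in RefSeq (GRCm38.p6, plus strand, chr4:132308428-132308727 and chr17:24528001-24528300), are printed because both genes rank at the top of the rises. The Ppan window (chr9:20887925-20888224, plus strand) is printed as an example of the nucleolar genes that fell. Capitals mark CTTT within 10 bases of the start in the first 2 windows and CCGGAAGT, the core to which ETS family factors such as GABPA bind, in the third.
Snhg12: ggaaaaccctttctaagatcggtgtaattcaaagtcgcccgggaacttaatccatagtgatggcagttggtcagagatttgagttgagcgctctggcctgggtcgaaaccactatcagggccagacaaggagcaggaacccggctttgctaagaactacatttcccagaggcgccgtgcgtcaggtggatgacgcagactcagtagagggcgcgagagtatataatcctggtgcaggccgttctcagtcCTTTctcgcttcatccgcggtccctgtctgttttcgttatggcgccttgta
Rab26os: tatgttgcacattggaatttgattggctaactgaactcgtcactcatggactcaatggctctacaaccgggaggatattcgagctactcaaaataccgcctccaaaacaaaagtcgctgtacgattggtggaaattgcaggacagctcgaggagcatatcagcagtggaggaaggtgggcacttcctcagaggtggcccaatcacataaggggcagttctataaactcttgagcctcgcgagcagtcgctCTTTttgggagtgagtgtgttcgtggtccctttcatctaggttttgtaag
Ppan: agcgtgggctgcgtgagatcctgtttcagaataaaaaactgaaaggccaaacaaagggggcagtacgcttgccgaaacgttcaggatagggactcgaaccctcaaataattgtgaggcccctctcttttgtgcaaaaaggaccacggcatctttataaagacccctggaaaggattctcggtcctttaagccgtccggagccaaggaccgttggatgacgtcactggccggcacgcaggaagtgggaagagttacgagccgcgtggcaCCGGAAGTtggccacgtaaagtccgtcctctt
RefSeq windows matched 9424 of the 13406 genes by symbol. CTTT beginning within 10 bases of the start on the gene's own strand was found in 8.92% of all 9424 windows, in 10.7% of the windows of the shared genes that rose (666 windows) and in 7.65% of those that fell (1790 windows). It was in 31.7% of 60 windows of cytosolic ribosomal protein genes and in 4 of the 8 of the snoRNA hosts. On the other strand, as AAAG, it was in 7.96% of all windows, 8.71% of those that rose and 6.65% of those that fell. CCGGAAGT, on either strand and anywhere in the 300 bases, was found in 14.6% of the windows of genes that fell, in 7.21% of those of genes that rose and in 9.43% of all. It was also in 20% of the 60 windows of cytosolic ribosomal protein genes and in 2 of the 8 of the snoRNA hosts, so it was not particular to genes that fell. These shares describe letters in a window and were not tested, and the motifs do not overlap each other.

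In the values as deposited most cytosolic ribosomal protein genes rose and none fell. Of 31 members tested from a fixed list, 19 rose and 0 fell (61.3% and 0%, beside 7.3% and 17.5% of all genes), with a median difference of 0.55 (0.54 in the iPSC lineage and 0.58 in the TSC lineage) beside -0.10 over all genes. Rps29 had 9965, 9428, 7795 and 7493 FPKM in the assembled iPSC parts and 4579, 3993, 4715 and 4682 FPKM in iPSC alone, and 6558, 7633, 5849.8 and 7825 FPKM in the assembled TSC parts and 2708, 3449.9, 6134 and 3337 FPKM in TSC alone (0.92 ± 0.15, adjusted p = 0.000604). The iPSC libraries were separate, but in the TSC lineage the lone replicate 1 with BMP4 lay among the assembled ones. Rpl23 (0.95 ± 0.15, adjusted p = 0.000452), Rpl30 (0.82 ± 0.16, adjusted p = 0.00168) and Rpl37 (0.85 ± 0.20, adjusted p = 0.00527) also rose. The other 12 members of the list did not pass, among them Rps9 (-0.30 ± 0.13, adjusted p = 0.103), Rpl8, Rps3, Rpl4 and Rps2 with differences below 0. Rps12, like Rps9 chosen after its values were seen, rose (1.10 ± 0.16, adjusted p = 0.000322), with 1978 to 3598 FPKM in the assembled libraries and 712 to 1642 FPKM in the lone ones. Over all 85 cytosolic ribosomal protein genes tested, a wider group chosen after the values were seen, 57 rose and 0 fell, beside 7.3% and 17.5% of all genes, and 19 rose in both lineages when each was tested alone. The counts were 37 and 4 with quantile normalization, 72 and 0 with upper quartile rescaling, 55 and 2 with predicted names left out, and 63 and 0 with the correction for GC content and length. These genes have many near-identical pseudogenes, and whether the authors' counting split reads among them was not tested.

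The share of all FPKM held by cytosolic ribosomal protein genes was 26.6 to 30.6% in the assembled iPSC parts and 21.6 to 23.8% in iPSC alone. It was 24.5 to 26.5% in the assembled TSC parts and 15.6 to 24.3% in TSC alone, so the groups were separate in both lineages. The highest lone TSC library was again replicate 1 with BMP4. Length moved with assembly as well: the Spearman correlation, across well expressed genes, of a library's deviation from the mean of its lineage with transcript length was -0.35 to 0.01 in the assembled libraries and 0.07 to 0.27 in 7 of the lone ones, against -0.36 in replicate 1 of TSC alone with BMP4. Cytosolic ribosomal protein genes had a median length of 1047 bases by the longest annotated transcript of each symbol, which may not be the one expressed. The part of length in their difference was not tested beyond the count with the correction, given above.

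**Figure D2:**
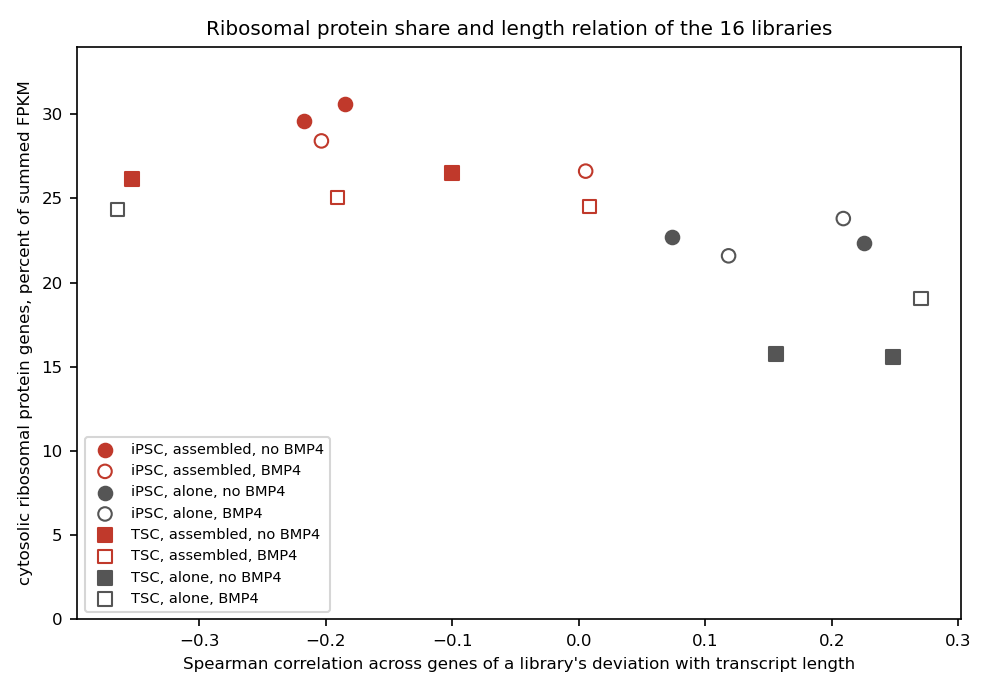
Each point is 1 of the 16 libraries, with the percent of its summed FPKM from cytosolic ribosomal protein genes on the vertical axis and the Spearman correlation, across genes, of its deviation with transcript length on the horizontal axis. Assembled libraries (red) hold 24.5 to 30.6% and lone libraries (grey) 15.6 to 24.3%, and the lone open square at the far left is replicate 1 of TSC alone with BMP4.

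Poly(A) binding protein genes were also higher in assembled cells. Pabpc1, the main cytoplasmic poly(A) binding protein, which also controls the translation of mRNAs with a terminal oligopyrimidine start, had 416 to 727 FPKM in the assembled libraries and 220.2 to 360.3 FPKM in the lone ones (0.98 ± 0.12, adjusted p = 0.000199). Pabpc4, a close relative, rose (1.33 ± 0.23, adjusted p = 0.00095). Of the 4 poly(A) binding protein genes tested, 3 rose and 0 fell, beside 7.3% and 17.5% of all genes, a group picked with its values in view. Counts of 3 and 0 were found with quantile normalization, upper quartile rescaling and the GC and length correction, and 2 and 0 with predicted names left out. Translation factor genes, picked likewise, did not share this direction. Of 11 elongation factor genes (names beginning Eef) 2 rose and 4 fell, with a median of -0.23. Of 54 initiation factor genes (Eif) 4 rose and 15 fell, with a median of -0.09, and the rises ran from 2 to 7 over the omissions of single libraries.

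The protein-coding genes that the naming rule took among the rises have different known roles. Trim28 (KAP1), the corepressor that KRAB zinc finger proteins recruit to silence transposons, had 464, 432, 312 and 293 FPKM in the assembled iPSC parts and 144, 125, 90.6 and 104 FPKM in iPSC alone. It had 242, 391, 279 and 338 FPKM in the assembled TSC parts and 106, 116, 156 and 113 FPKM in TSC alone. Both lineages were without overlap, and the difference was 1.51 ± 0.15, adjusted p = 6.27e-05. Its relative Trim24, a bromodomain protein that coregulates transcription, rose (1.47 ± 0.26, adjusted p = 0.000974), with 6.38 to 28.8 FPKM in the assembled and 0.754 to 9.23 FPKM in the lone libraries. Ppp2r5a, a regulatory subunit of protein phosphatase 2A, rose (1.42 ± 0.19, adjusted p = 0.00022). It had 11 to 13 FPKM in the assembled iPSC parts and 3.53 to 6.11 FPKM in iPSC alone, and 16.8 to 29.5 FPKM in the assembled TSC parts and 3.6 to 10.3 FPKM in TSC alone. Abhd17c, an enzyme that removes palmitate from membrane proteins, rose (1.40 ± 0.21, adjusted p = 0.000366). B4galt6, which makes lactosylceramide, rose (1.53 ± 0.24, adjusted p = 0.000575). Plaur, the receptor of urokinase, had 109, 137, 157 and 148 FPKM in the assembled TSC parts and 2.76, 63.3, 80.4 and 95.6 FPKM in TSC alone (1.47 ± 0.46, adjusted p = 0.0263). The lowest of these lone values was far under the other 3, and the call for Plaur was lost without replicate 2 of the assembled iPSC part without BMP4 and without replicate 2 of the assembled TSC part without BMP4.

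Sco2, a copper chaperone needed to assemble cytochrome c oxidase, had the largest difference of the named genes but also the least certain values. It had 26.1, 39.1, 31 and 26.7 FPKM in the assembled iPSC parts and was listed at or near 0 in all 4 libraries of iPSC alone. In the TSC lineage it had 30.4, 29.5, 33.3 and 33.9 FPKM in the assembled parts, and alone it was at or near 0 in both libraries without BMP4 and at 16.4 and 2.21 FPKM with BMP4. The difference was 4.27 ± 0.43, adjusted p = 6.27e-05. In the annotation Sco2 overlaps Ncaph2 on the other strand and Tymp, and whether the counting used strand is not given in the sources used here. Ncaph2, chosen after its values were seen, had 21.5 to 55.1 FPKM in the assembled and 33 to 75.5 FPKM in the lone libraries. Values at 0 can be failed estimates, so no fold is given for Sco2.

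The 12 named genes that fell without overlap in either lineage, which range from -1.98 to -1.63, are given by known role, first those of chromatin, the nuclear envelope and the nucleolus. Chaf1a, the large subunit of the histone chaperone that lays new nucleosomes behind the replication fork, had 2.94, 1.35, 6.18 and 6.61 FPKM in the assembled iPSC parts and 20.0, 17.6, 29.6 and 21.8 FPKM in iPSC alone. It had 3.57, 3.23, 4.46 and 3.82 FPKM in the assembled TSC parts and 14.8, 8.7, 8.25 and 17.2 FPKM in TSC alone (-1.84 ± 0.23, adjusted p = 0.000174). Lmnb1, which encodes the nuclear lamina protein lamin B1, had 4.33 to 11.3 FPKM in the assembled iPSC parts and 22.8 to 36.6 FPKM in iPSC alone, and 4.34 to 7.65 FPKM in the assembled TSC parts and 10.6 to 34.7 FPKM in TSC alone (-1.81 ± 0.24, adjusted p = 0.00022). Chmp7, an ESCRT protein that helps to reseal the nuclear envelope, fell (-1.65 ± 0.28, adjusted p = 0.000758), and Hdgfl2, a protein that reads modified nucleosomes, fell too (-1.70 ± 0.25, adjusted p = 0.000332). In each of these 4 genes every assembled library lay below every lone library of its lineage.

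Ppan, a nucleolar protein of large ribosomal subunit assembly whose promoter is printed above, had 18.8, 13.8, 21.8 and 36.9 FPKM in the assembled iPSC parts and 94.2, 109, 107 and 78.7 FPKM in iPSC alone. It had 27.8, 24.2, 24.9 and 27.8 FPKM in the assembled TSC parts and 56.7, 62.5, 42.2 and 84.9 FPKM in TSC alone (-1.64 ± 0.21, adjusted p = 0.000199). Ddx54, a nucleolar helicase, fell (-1.63 ± 0.23, adjusted p = 0.000317), with 3.28 to 12.8 FPKM in assembled and 18.2 to 41.8 FPKM in lone libraries. The wider families, chosen after the values were seen, moved the same way. Of 36 DEAD-box helicases tested, which unwind RNA in splicing, export and ribosome assembly, 21 fell and 0 rose, beside 17.5% and 7.3% of all genes, and 16 to 24 fell under the 4 other scalings, with 2 rises in 3 of them (all but predicted names left out). Of 26 genes of the small subunit processome and related nucleolar proteins (names beginning Utp, Nop or Rrp), 13 fell and 1 rose, beside the same shares, and 10 to 16 fell and 1 rose under the 4 other scalings. Rrp9, a protein of the U3 snoRNP, fell (-1.11 ± 0.19, adjusted p = 0.00095), and Nop2, an rRNA methyltransferase, fell too (-0.75 ± 0.17, adjusted p = 0.00531).

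Of 34 aminoacyl-tRNA synthetase genes, which load amino acids on tRNAs, 13 fell and 1 rose, beside 17.5% and 7.3% of all genes, and 6 to 19 fell under the 4 other scalings. Most genes called encode mitochondrial enzymes (Aars2, Cars2, Ears2, Hars2, Iars2, Lars2, Mars2, Pars2, Rars2 and Tars2), and the others were Aars, Dars, Hars and Vars. Among 38 genes with names beginning Psma, Psmb, Psmc or Psmd, most of them proteasome subunits, 12 fell and 3 rose. These counts stand beside 17.5% and 7.3% of all genes, so the share that rose was near that of all genes. The genes called included Psmc3ip, which was matched by name and is not a subunit. With upper quartile rescaling 10 fell and 11 rose. Rises numbered 7 without replicate 1 of TSC alone with BMP4, and 1 without either replicate of the assembled iPSC part without BMP4, replicate 2 of the assembled TSC part with BMP4, replicate 2 of iPSC alone without BMP4 or replicate 1 of iPSC alone with BMP4. Psmd13, a lid subunit, had 20.6 to 50.7 FPKM in the assembled iPSC parts and 80.7 to 113 FPKM in iPSC alone, and 23 to 31.5 FPKM in the assembled TSC parts and 41 to 114 FPKM in TSC alone (-1.61 ± 0.20, adjusted p = 0.000187). Psmd3, another lid subunit, fell (-1.09 ± 0.15, adjusted p = 0.00028). Both families and both genes were picked with their values in view.

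The largest of the 12 falls are among those of metabolic, signalling and surface proteins. Aldh2, the mitochondrial aldehyde dehydrogenase, had 4.45, 4.15, 12.4 and 12.6 FPKM in the assembled iPSC parts and 24.6, 21.7, 63.4 and 68.2 FPKM in iPSC alone, and 3.11 to 5.07 FPKM in the assembled TSC parts and 5.87 to 22.4 FPKM in TSC alone (-1.96 ± 0.30, adjusted p = 0.000434). Within each BMP4 condition of the iPSC lineage the assembled libraries were the lower ones. Acaa1a, a peroxisomal thiolase, fell (-1.81 ± 0.29, adjusted p = 0.000637), and Galk1, the galactokinase that starts galactose breakdown, fell too (-1.72 ± 0.21, adjusted p = 0.000154). Arhgef16, a guanine nucleotide exchange factor, had 1.25 to 5.88 FPKM in the assembled and 7.05 to 55 FPKM in the lone libraries (-1.98 ± 0.33, adjusted p = 0.000719). St14, the membrane protease matriptase of epithelia, fell (-1.88 ± 0.33, adjusted p = 0.00104), and Dedd2, a protein with a death effector domain, fell too (-1.75 ± 0.26, adjusted p = 0.000351). In these 6 genes, too, the assembled and lone libraries of each lineage did not overlap.

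**Figure D3:**
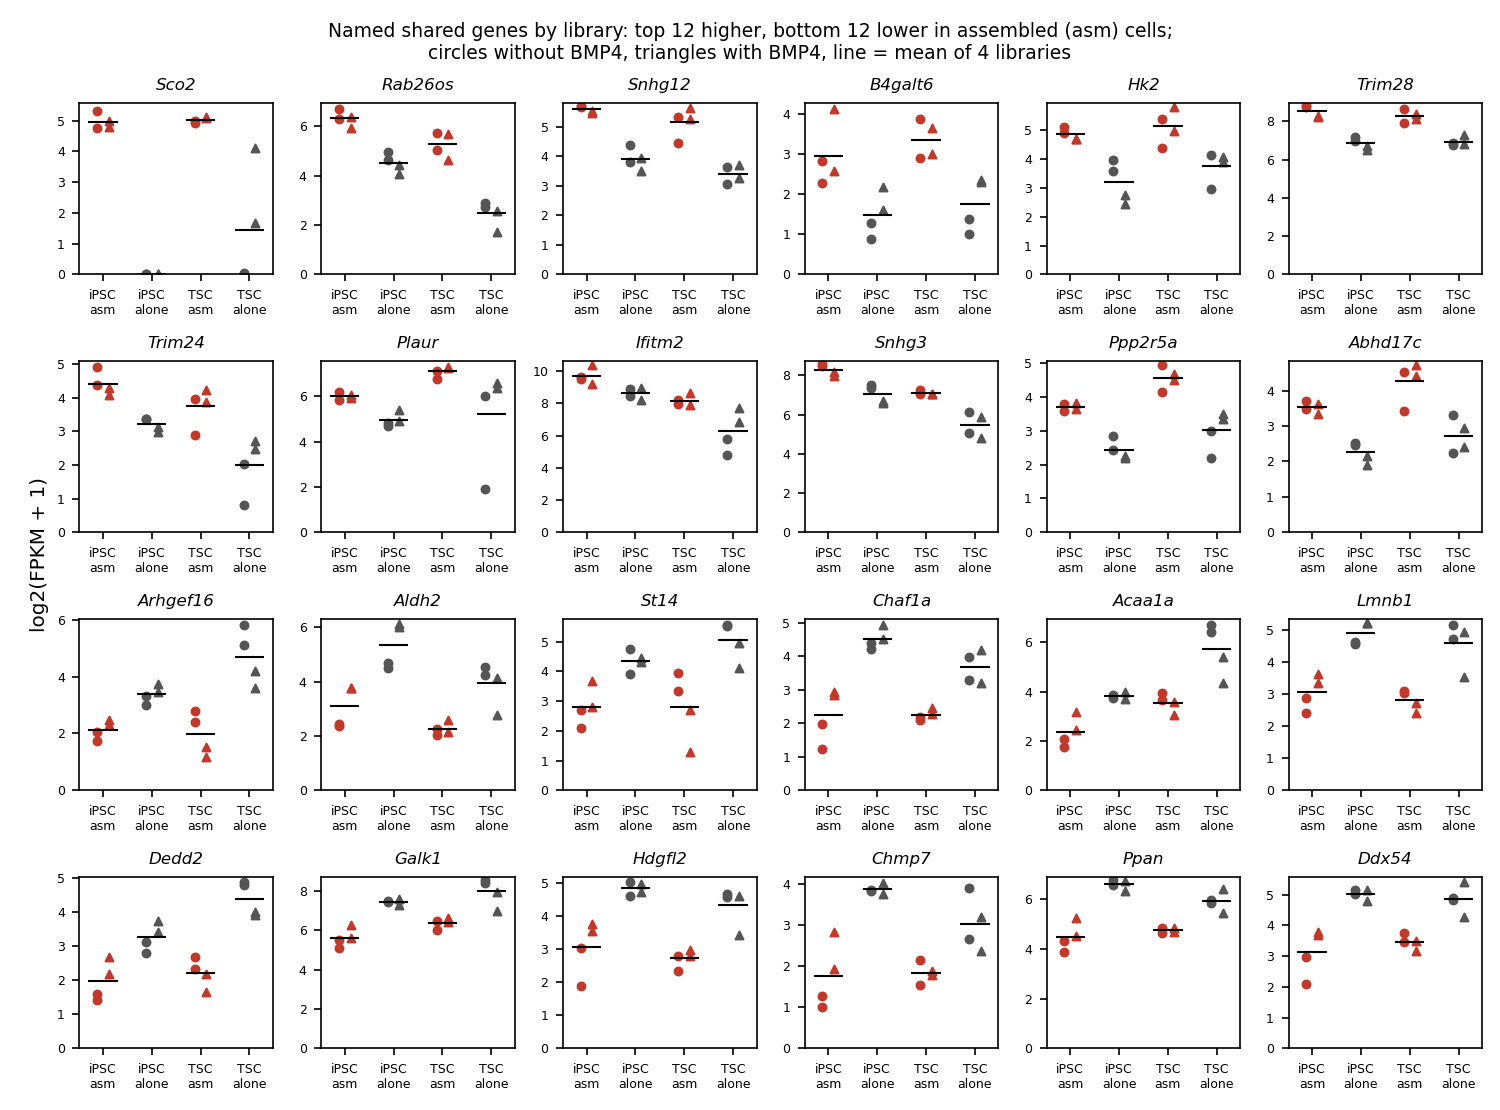
The 24 named genes with the largest shared differences, in log2(FPKM + 1) by library, with assembled libraries in red left of lone libraries in grey for each lineage, circles without BMP4, triangles with BMP4 and a line at the mean of 4. The upper 12 were higher and the lower 12 lower in assembled cells, with no overlap within either lineage by the rule that chose them.

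Chaperones and targets of p53 fell in part and none rose. Of 19 heat shock and chaperone genes tested, 10 fell and 0 rose (52.6%, beside 17.5% of all genes), with a median of -0.42. Hsp90ab1, the constitutive HSP90, had 872, 630.4, 995 and 901 FPKM in the assembled iPSC parts and 2080.3, 2057, 2345 and 2052 FPKM in iPSC alone, and 747, 807, 882 and 615 FPKM in the assembled TSC parts and 1841, 1206, 815 and 1521 FPKM in TSC alone (-1.06 ± 0.17, adjusted p = 0.000604). The TSC libraries overlapped through replicate 1 of TSC alone with BMP4. Dnaja1, an HSP40 cochaperone, fell (-0.81 ± 0.11, adjusted p = 0.000285), and the mitochondrial chaperones Hspa9 (-1.10 ± 0.16, adjusted p = 0.000348) and Hspd1 (-0.69 ± 0.12, adjusted p = 0.000821) fell as well. The count that fell was 4 with upper quartile rescaling and 4 with the GC and length correction. That count was 5 without replicate 2 of iPSC alone, and 6 without replicate 2 of the assembled iPSC part without BMP4 or either replicate of iPSC alone with BMP4. Of 18 p53 targets, 8 fell and 0 rose (44.4%), with a median of -0.54. Aen, a nuclease induced by p53, had 13.4 to 19.3 FPKM in the assembled iPSC parts and 36.5 to 62.2 FPKM in iPSC alone, and 8.15 to 21.1 FPKM in the assembled TSC parts and 21.9 to 30.7 FPKM in TSC alone (-1.21 ± 0.19, adjusted p = 0.000463). Sesn2 fell (-1.07 ± 0.19, adjusted p = 0.00115). The death-promoting Bax fell (-0.89 ± 0.14, adjusted p = 0.000543) and Bbc3 (Puma) (-0.89 ± 0.21, adjusted p = 0.00722). The number of p53 targets that fell was 5 with quantile normalization, 4 with upper quartile rescaling, 5 with the GC and length correction, 5 without replicate 2 of TSC alone with BMP4 and 5 without the pair of libraries with genes of the other lineage.

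Of 26 cell cycle and replication genes, 10 fell and 1 rose (38.5% and 3.85%, beside 17.5% and 7.3% of all genes). The median was -0.32 (-0.60 in the iPSC lineage and -0.02 in the TSC lineage). The falls were led by the helicase that opens replication origins and by nucleotide synthesis. Mcm3 had 25.5 to 42.3 FPKM in the assembled iPSC parts and 94.3 to 107 FPKM in iPSC alone, and 37.6 to 58.5 FPKM in the assembled TSC parts and 42.8 to 127 FPKM in TSC alone (-1.19 ± 0.21, adjusted p = 0.00105), so the TSC libraries overlapped. Mcm6 fell (-1.06 ± 0.19, adjusted p = 0.00106), Mcm5 (-0.77 ± 0.17, adjusted p = 0.00388) and Rrm1, the large subunit of ribonucleotide reductase, (-0.89 ± 0.16, adjusted p = 0.00104). The gene that rose was Pcna, the clamp of DNA polymerases (0.54 ± 0.13, adjusted p = 0.00647), a name outside the naming rule. Under the 4 other scalings 8 to 13 fell and 1 to 4 rose, and the number that rose was 3 without replicate 1 of TSC alone with BMP4 and 2 without replicate 1 of TSC alone without BMP4 or replicate 2 of the assembled iPSC part without BMP4.

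As deposited, subunits of oxidative phosphorylation rose in a larger share than all genes and fell in a share near that of all genes. Of 29 tested, 10 rose and 5 fell (34.5% and 17.2%, beside 7.3% and 17.5% of all genes), with a median of 0.18. Uqcrh, a small subunit of complex III, rose (0.71 ± 0.15, adjusted p = 0.00365), with 547 to 997 FPKM in assembled and 369 to 743 FPKM in lone libraries. Cytochrome c1 (Cyc1) of the same complex fell (-0.93 ± 0.13, adjusted p = 0.000305), the flavoprotein Ndufv1 of complex I (-0.88 ± 0.16, adjusted p = 0.00117) and Sdha of complex II (-0.77 ± 0.14, adjusted p = 0.00132). With quantile normalization 4 rose and 5 fell, and with upper quartile rescaling 16 rose and 3 fell. The number that rose was 6 without replicate 1 of the assembled iPSC part without BMP4, without replicate 2 of the assembled TSC part with BMP4, without replicate 2 of TSC alone with BMP4 or without the pair of libraries with genes of the other lineage.

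Sterol and fatty acid synthesis had 5 of 26 genes that rose and 2 that fell (19.2% and 7.69%, beside 7.3% and 17.5% of all genes). The median was 0.28. Fasn, the fatty acid synthase, had 71.7 to 108 FPKM in the assembled iPSC parts and 42.2 to 58.7 FPKM in iPSC alone, and 142 to 194 FPKM in the assembled TSC parts and 48.9 to 91.9 FPKM in TSC alone (1.01 ± 0.15, adjusted p = 0.000322). Nsdhl (0.98 ± 0.23, adjusted p = 0.00586) and Msmo1 (0.95 ± 0.26, adjusted p = 0.0137), both enzymes that remove methyl groups on the way to cholesterol, rose, and Tm7sf2 rose (0.83 ± 0.27, adjusted p = 0.032), a call kept in 9 of 16 omissions of a single library. Acly (-0.65), outside the naming rule, was among the 2 that fell, and that number ran from 0 (without replicate 2 of TSC alone) to 3 over the omissions, with 1 in 10 of them. Without the pair of libraries with genes of the other lineage 3 rose and 1 fell. Of 21 genes of the amino acid and integrated stress response, 1 rose, the asparagine synthetase Asns (0.77 ± 0.23, adjusted p = 0.0219), and 1 fell, Sesn2. Omitting replicate 1 of the BMP4-treated assembled iPSC part gave 2 rises, and the number that fell was 2 without replicate 2 of TSC alone and 3 without replicate 1 of TSC alone, replicate 1 of TSC alone with BMP4 or replicate 2 of the assembled TSC part with BMP4.

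**Figure D4:**
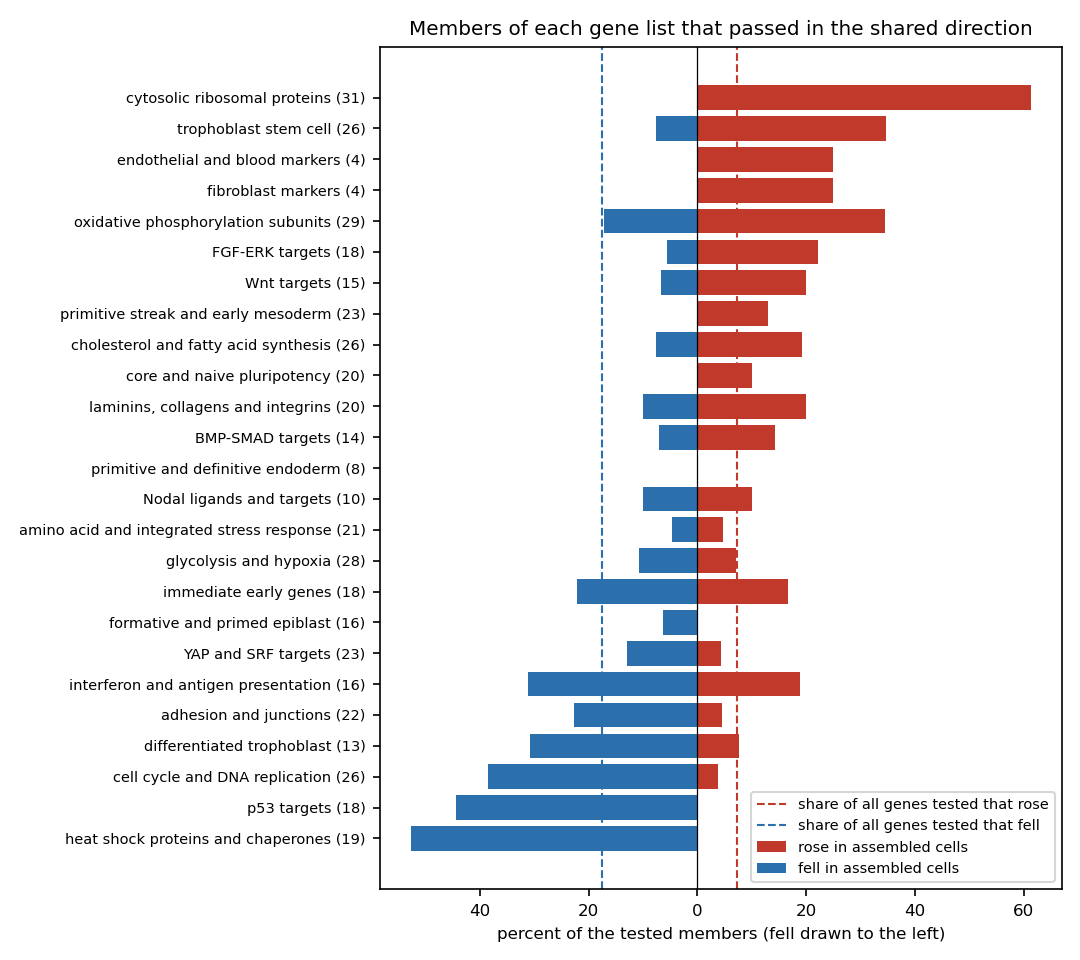
For each of 25 gene lists, with the number of members tested in brackets, bars give the percent of members that rose (red, right) and fell (blue, left) in assembled cells with the same sign in both lineages. Dashed lines mark the shares over all 13406 genes, 7.3% that rose and 17.5% that fell.

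Adhesion genes fell in a share near that of all genes. Of 22 adhesion and junction genes, 5 fell and 1 rose (22.7% and 4.55%, beside 17.5% and 7.3% of all genes), with a median of -0.48 that came from the TSC lineage (-0.70, against 0.03 in the iPSC lineage). Cdh1, the E-cadherin of epithelia and both stem cells, had 24.1, 21.4, 24.4 and 35.1 FPKM in the assembled iPSC parts and 58.7, 58, 56.5 and 54.4 FPKM in iPSC alone, and 32.3, 74.2, 2.12 and 20.2 FPKM in the assembled TSC parts and 82.1, 95.6, 26 and 34.1 FPKM in TSC alone (-1.24 ± 0.40, adjusted p = 0.033). The iPSC libraries were separate and the TSC libraries overlapped, and the call was kept in 9 of 16 omissions of a single library. Epcam fell (-0.99 ± 0.24, adjusted p = 0.00782), the desmosomal Pkp2 (-1.08 ± 0.15, adjusted p = 0.000301) and the tight junction protein Tjp3 (-1.73 ± 0.34, adjusted p = 0.00193). The desmoglein Dsg2, outside the naming rule, was the member that rose (0.83 ± 0.18, adjusted p = 0.0031), and 3 members rose without replicate 1 of the assembled TSC part with BMP4. Of 20 laminins, collagens and integrins, 4 rose and 2 fell (20% and 10%), with a median of 0.01 that was below 0 with predicted names left out. Itgav, an integrin chain that binds fibronectin and vitronectin, rose (1.14 ± 0.19, adjusted p = 0.000752). Itga6, an integrin chain that binds laminin, rose (1.06 ± 0.24, adjusted p = 0.0045) and Lamc1, a laminin chain, (0.88 ± 0.23, adjusted p = 0.0102). Dag1, the laminin receptor dystroglycan, fell (-0.98 ± 0.23, adjusted p = 0.00597), and the number that fell was 1 in 12 of 16 omissions of a library, replicate 2 of the assembled TSC part without BMP4 among them. Of 23 targets of YAP and SRF, 1 rose (Srf, 0.81 ± 0.17, adjusted p = 0.00284) and 3 fell (4.35% and 13%), led by the tropomyosin Tpm2 (-1.59 ± 0.25, adjusted p = 0.000604) and including Amotl2 (-0.63 ± 0.18, adjusted p = 0.0166) and Axl (-0.46 ± 0.14, adjusted p = 0.0268), the last kept in 13 of 16 omissions. The number of these targets that rose was 2 without replicate 1 of the assembled TSC part without or with BMP4, replicate 2 of the BMP4-treated assembled iPSC part or replicate 1 of TSC alone with BMP4. Axl was low throughout, at 0.439 to 0.672 FPKM in the assembled iPSC parts and 1.08 to 2.44 FPKM in iPSC alone. In the TSC lineage it had 0 to 0.108 FPKM in the assembled parts and 0 to 0.365 FPKM alone.

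Few members of each signalling list changed, though the share that rose was above the 7.3% of all genes in each. The share that fell was below the 17.5% of all genes in each list but immediate early genes. Of 18 FGF-ERK targets 4 rose and 1 fell (22.2% and 5.56%), with a median of 0.54 (0.03 in the iPSC lineage and 1.10 in the TSC lineage). The feedback inhibitors Spred1 (1.03 ± 0.20, adjusted p = 0.00192) and Spred2 (1.26 ± 0.29, adjusted p = 0.00563) rose, as did Spry1 (0.82 ± 0.28, adjusted p = 0.0442), the last through the TSC lineage (1.57, against 0.08 in the iPSC lineage), with its call kept in 5 of 16 omissions. Myc, the growth-promoting transcription factor, fell (-0.82 ± 0.23, adjusted p = 0.0157). The number that rose was 2 without replicate 1 or replicate 2 of the assembled TSC part without BMP4, without either replicate of the assembled iPSC part without BMP4, or without replicate 1 of TSC alone with BMP4. Dusp6, also an ERK feedback gene, did not pass (0.43 ± 0.44, adjusted p = 0.503). Of 15 Wnt targets 3 rose and 1 fell (20% and 6.67%), with Tcf7 at 0.88 ± 0.19, adjusted p = 0.0041, Apcdd1 at 0.60 ± 0.16, adjusted p = 0.0146 and Nkd2 at -0.61 ± 0.19, adjusted p = 0.0254, a call lost without replicate 1 of iPSC alone with BMP4, while Axin2 did not pass (0.55 ± 0.27, adjusted p = 0.152). Apcdd1 was low throughout, at 0.396 to 0.823 FPKM in the assembled iPSC parts and 0.0683 to 0.243 FPKM in iPSC alone. In the TSC lineage it had 0.115, 0.789, 2.18 and 1.90 FPKM in the assembled parts and 0 to 0.517 FPKM alone. Of 14 BMP-SMAD targets 2 rose and 1 fell (14.3% and 7.14%): Id2 rose (1.29 ± 0.34, adjusted p = 0.0113), Smad6, an inhibitor of the pathway, rose (0.71 ± 0.17, adjusted p = 0.0077) and Gata2 fell (-1.89 ± 0.50, adjusted p = 0.0117), and Id1 did not pass (0.39 ± 0.44, adjusted p = 0.545). Of 10 Nodal ligands and targets 1 rose (Eomes) and 1 fell (Lefty1, -0.93 ± 0.30, adjusted p = 0.0297, 10% each), the second kept in 9 of 16 omissions. Of 18 immediate early genes 3 rose and 4 fell (16.7% and 22.2%), among them Fos (1.03 ± 0.36, adjusted p = 0.047; kept in 4 of 16 omissions), Jun (-1.35 ± 0.37, adjusted p = 0.0145) and Junb (-0.88 ± 0.20, adjusted p = 0.00572). The number of them that rose was 0 without replicate 1 of iPSC alone with BMP4 and 1 in 6 other omissions of a library, and omitting the pair with genes of the other lineage left 0.

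Genes of the trophoblast stem state were the lineage list with most rises, but the count depended on single libraries. Of 26 tested, 9 rose and 2 fell (34.6% and 7.69%, beside 7.3% and 17.5% of all genes), with a median of 0.20. The 2 that fell were Gata2 (-1.89, given above) and Tfap2c (-1.02 ± 0.35, adjusted p = 0.0417), the second outside the naming rule. In the TSC lineage Krt8 (-3.07), Rhox9 (-2.55), Rhox6 (-2.53) and Krt18 (-1.76) were lower in assembled cells. None of these, chosen with their values known, passed over both lineages, and the median of the list in the TSC lineage was 0.44. Eomes, a T-box factor that trophoblast stem cells and the primitive streak both need, had 11.2, 30.5, 29.2 and 33.8 FPKM in the assembled TSC parts and 0.219, 0.0844, 14.3 and 13.7 FPKM in TSC alone. In the iPSC lineage it had 4.19, 3.66, 16.5 and 18.1 FPKM in the assembled parts and 2.41, 2.03, 2.85 and 3.04 FPKM alone, without overlap (2.01 ± 0.39, adjusted p = 0.00187). Bmp4 itself had 16.4, 31, 25.5 and 35.5 FPKM in the assembled TSC parts and 0.267, 0.623, 16.4 and 13.8 FPKM in TSC alone, and 1.55, 1.38, 90.5 and 20.5 FPKM in the assembled iPSC parts and 1.02, 0.925, 0.876 and 16.5 FPKM in iPSC alone (2.07 ± 0.53, adjusted p = 0.00964). Elf5, given above, rose (1.83 ± 0.64, adjusted p = 0.0462), a call kept in 4 of 16 omissions of a library, with 1 assembled iPSC library above 1 FPKM, replicate 2 with BMP4. Without that library or without replicate 2 of the assembled TSC part, 4 members of the list rose, and without both 3 rose and 3 fell. The count was also 4 or 5 without 7 other libraries. The number that fell was 4 without the iPSC library just named and 1 in 11 other omissions. Cdx2 did not pass (-0.00 ± 0.31, adjusted p = 0.996).

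Of 13 differentiated trophoblast genes tested, 4 fell and 1 rose (30.8% and 7.69%, beside 17.5% and 7.3% of all genes). The median was -1.83 in the TSC lineage and -0.20 in the iPSC lineage. Of the 4 that fell, Pparg, Cdkn1c and Dlx3 had the larger difference in the TSC lineage, whereas Gcm1, a factor of labyrinth trophoblast outside the naming rule, had the larger one in the iPSC lineage (-0.95, against -0.54 in the TSC lineage; adjusted p = 0.0138 over both). Pparg, a nuclear receptor of the labyrinth trophoblast, had 0.143, 0.197, 0 and 0.957 FPKM in the assembled TSC parts and 102, 49.5, 2.91 and 18.2 FPKM in TSC alone (-2.24 ± 0.66, adjusted p = 0.0205), and 0 to 0.125 FPKM in the assembled iPSC parts and 0 to 0.594 FPKM in iPSC alone. Cdkn1c, an imprinted inhibitor of the cell cycle, had 2.26, 9.13, 2.9 and 8.08 FPKM in the assembled TSC parts and 479.8, 173, 16.2 and 72.4 FPKM in TSC alone (-2.24 ± 0.65, adjusted p = 0.0186), and 0.265 to 1.04 FPKM in the assembled iPSC parts and 0.706 to 1.55 FPKM in iPSC alone. Dlx3, a homeobox factor of the placenta, fell (-1.19 ± 0.41, adjusted p = 0.0407) and Plac8 rose (0.82 ± 0.27, adjusted p = 0.0346), calls kept in 6 of 16 and 7 of 16 omissions of a single library. Pparg and Cdkn1c are shared genes by sign, while within the iPSC lineage alone neither passed (adjusted p = 0.864 and 0.749). The number of members that fell was 7 without replicate 1 of iPSC alone and 2 without replicate 2 of iPSC alone with BMP4.

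Pluripotency and germ layer lists changed little in common, and their shares stand beside 7.3% of all genes that rose and 17.5% that fell. Of 20 core and naive pluripotency genes 2 rose and 0 fell (10%): Esrrb (1.52 ± 0.48, adjusted p = 0.03) and Klf5 (0.94 ± 0.31, adjusted p = 0.0366), both of which trophoblast stem cells also express and both with the larger difference in the TSC lineage (2.60 and 1.69). Their calls were kept in 7 of 16 and 8 of 16 omissions of a single library. In the iPSC lineage Esrrb had 0.286, 0.201, 0 and 7.4 FPKM in the assembled parts and 0.297 to 0.546 FPKM alone. Its iPSC difference (0.44) thus came from replicate 2 with BMP4, the library that held RNA of a TSC marker. The remaining assembled iPSC libraries lay below every lone one. The number of members that rose ran from 0 to 4 over the omissions of single libraries. Nanog did not pass (0.18 ± 0.25, adjusted p = 0.619). Oct4 moved in opposite directions, with a difference of -1.70 in the iPSC lineage (adjusted p = 0.0256) and 1.25 in the TSC lineage (0.121), where its levels were those given above. Of 16 formative and primed epiblast genes 0 rose and 1 fell (6.25%), the DNA methyltransferase Dnmt3a (-1.08 ± 0.20, adjusted p = 0.00161), and Fgf5 did not pass (-0.76 ± 0.48, adjusted p = 0.258). The number that fell was 2 without replicate 1 of TSC alone or replicate 1 of the BMP4-treated assembled iPSC part. Of 23 primitive streak and early mesoderm genes 3 rose and 0 fell (13%), among them Eomes and Kdr (0.61 ± 0.20, adjusted p = 0.0297), the second kept in 10 of 16 omissions. Without replicate 1 of iPSC alone with BMP4, 1 rose. Brachyury (T), the marker of the streak, had 237, 257, 326 and 94.8 FPKM in the assembled iPSC parts and 44.6, 39.6, 172 and 270.3 FPKM in iPSC alone (1.31 ± 0.48, adjusted p = 0.0562 over both lineages). Of 8 endoderm genes tested 0 rose and 0 fell by limma, and of 4 fibroblast and 4 endothelial and blood markers that passed the level filter 1 rose in each, Thy1 (0.66 ± 0.16, adjusted p = 0.00756) and Kdr. Of 16 interferon and antigen presentation genes 3 rose and 5 fell (18.8% and 31.2%, beside 7.3% and 17.5% of all genes). Ifitm2, a membrane protein that blocks virus entry, rose (1.46 ± 0.30, adjusted p = 0.00255) and Ifitm3 (1.50 ± 0.37, adjusted p = 0.00758), whereas Bst2 (tetherin) fell (-1.09 ± 0.27, adjusted p = 0.00785) and the class I gene H2-D1 fell as well (-1.16 ± 0.39, adjusted p = 0.0391), a call kept in 5 of 16 omissions. The number that fell was 3 in 9 of 16 omissions, replicate 2 of the assembled TSC part without BMP4 among them.

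Glycolysis and hypoxia was the list of the 25 with members that passed the test of one lineage against the other. Of 28 glycolysis and hypoxia genes 2 rose and 3 fell (7.14% and 10.7%, beside 7.3% and 17.5% of all genes). The share that rose was thus near that of all genes, and the share that fell was below it. The median was -0.80 in the iPSC lineage and 0.22 in the TSC lineage. The medians of differentiated trophoblast genes, of interferon genes and of FGF-ERK targets lay further apart, without a test. The number of glycolysis genes that fell was 6 without replicate 1 of TSC alone and 5 without replicate 1 of TSC alone with BMP4. Shared members included Hk2, the hexokinase that traps glucose in the cell, which rose (1.52 ± 0.25, adjusted p = 0.000714). It had 33.5, 29.2, 25.3 and 24.8 FPKM in the assembled iPSC parts and 14.6, 11.2, 5.7 and 4.42 FPKM in iPSC alone, and 20.1, 41.5, 54.6 and 30.1 FPKM in the assembled TSC parts and 6.84, 16.5, 15.8 and 13.8 FPKM in TSC alone, without overlap. The phosphofructokinase Pfkl fell (-1.73 ± 0.33, adjusted p = 0.00159), with 30.6, 22.4, 41.6 and 22.7 FPKM in the assembled iPSC parts and 198, 215, 183 and 181 FPKM in iPSC alone. In the TSC lineage Pfkl had 29.7, 28.1, 19.3 and 20.3 FPKM in the assembled parts and 22.1, 57.5, 28.8 and 70.0 FPKM alone, which overlap. Pfkm fell (-0.79 ± 0.16, adjusted p = 0.00194) and the stress gene Ddit4 (-1.36 ± 0.28, adjusted p = 0.00278), while the pyruvate kinase Pkm did not pass (-0.72 ± 0.29, adjusted p = 0.0826). Where the lineages were tested against each other, 24 genes passed (0.179%; 2447 at an unadjusted p under 0.05), and 3 of them were glycolysis genes, named after their values were seen. Ldha, the lactate dehydrogenase, had 1433, 1318, 1035 and 966 FPKM in the assembled iPSC parts and 3911, 3173, 2595 and 2684 FPKM in iPSC alone, a difference of -1.38. In the TSC lineage it had 1328, 1202, 977 and 866 FPKM in the assembled parts and 805, 882, 818 and 1247 FPKM alone, a difference of 0.22. The lineage difference was 1.60 ± 0.26 (adjusted p = 0.0304). Pdk1, the kinase that keeps pyruvate out of the mitochondrion, differed by -2.38 in the iPSC lineage and 0.72 in the TSC lineage (lineage difference 3.10 ± 0.53, 0.0304), and Gpi1, the phosphoglucose isomerase, by -0.92 and 0.32 (1.24 ± 0.23, 0.049). Leaving out single libraries gave counts between 0 (for example without replicate 2 of the assembled iPSC part without BMP4) and 217 (without replicate 1 of TSC alone with BMP4) in place of 24.

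Rbpms, an RNA binding protein, was the gene the naming rule took for opposite directions. It had 44.7, 52.8, 64.6 and 65.4 FPKM in the assembled iPSC parts and 57.3, 92.3, 134 and 129 FPKM in iPSC alone, and 71.9, 67.9, 77.4 and 63.2 FPKM in the assembled TSC parts and 16.2, 20.8, 50.0 and 59.2 FPKM in TSC alone. It fell in the iPSC lineage (-0.79, adjusted p = 0.0385) and rose in the TSC lineage (1.11, 0.0227), and the lineage difference was 1.90 ± 0.36 (0.0498).

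Whether BMP4 altered the assembly effect was tested in a fit with a separate assembly term for libraries without and with BMP4. By limma, 0 genes passed (0%), with 1160 at an unadjusted p under 0.05, and 19 passed when the 8 group means were fitted. Fitted separately, the libraries without BMP4 gave 1774 shared genes and those with BMP4 485, counts from 8 libraries each that were not tested against each other.

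**Figure D5:**
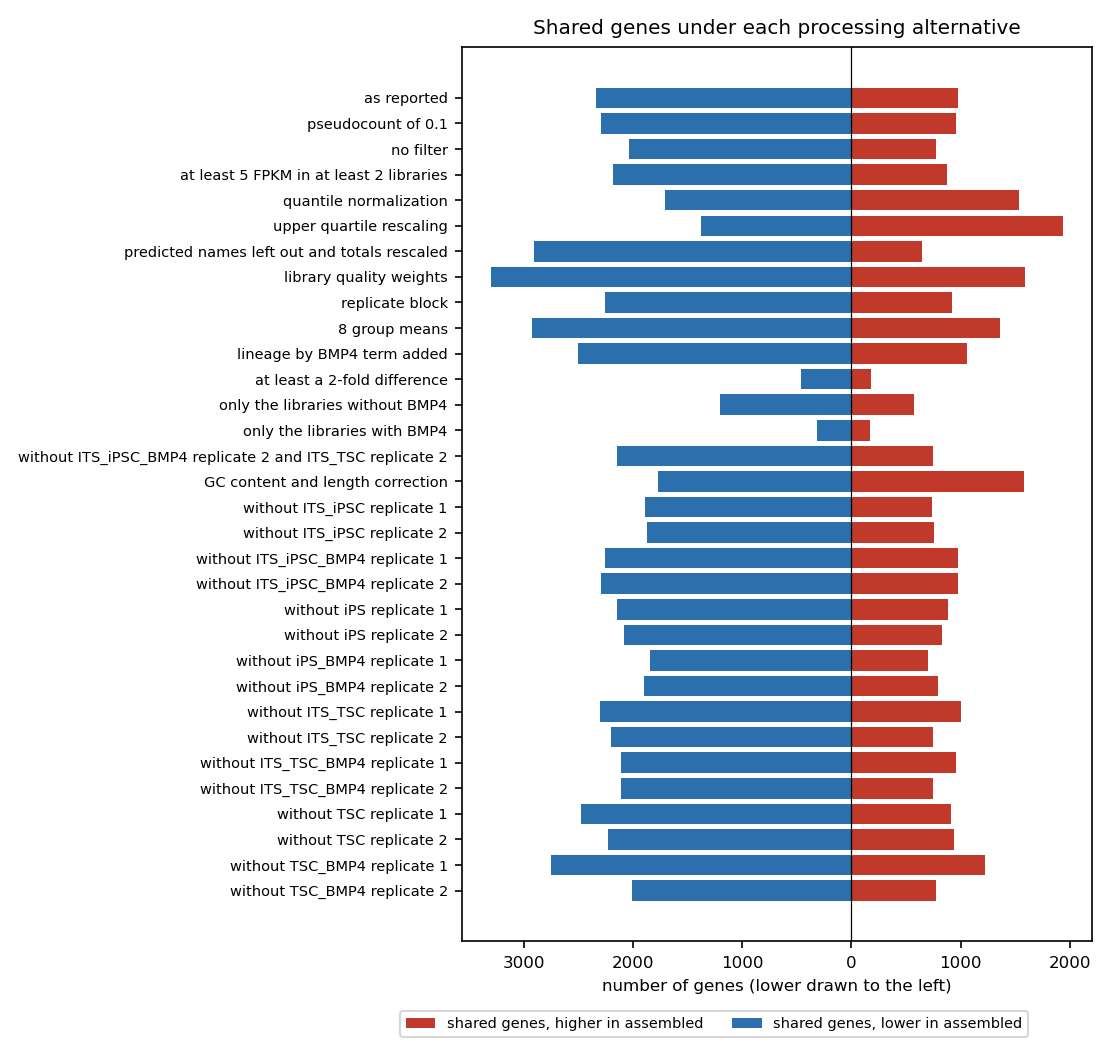
Number of shared genes under each alternative, with genes higher in assembled cells to the right (red) and lower to the left (blue). The count was 3320 as reported (979 and 2341) and 2552 to 3972 without single libraries, and 4 rescalings change the balance of the sides.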

How the data were processed

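RNA of 16 mouse libraries was measured by Smart-seq2, 2 in each of 8 groups. The authors deposited 1 table of FPKM with 31663 entries and 1 column per library. CASAVA, TopHat2 and the builds mm9 and hg19 are named, without roles, per the submitters' processing notes, while the tool behind the FPKM values, its gene models and its use of strand are not given in these sources. Every column was used, and 12 entries share a symbol.

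Genes at 1 FPKM or more in at least 2 libraries (13406) were taken as log2(FPKM + 1) and fitted in R 4.3.3 by limma (version 3.58.1; eBayes with trend). The main fit had lineage, BMP4 and assembly as terms (12 residual degrees of freedom), and further fits had an assembly term per lineage (11) or per BMP4 condition. Tests were two-sided with Benjamini-Hochberg adjustment over all genes and a threshold of 0.05. The fit was tested on simulated data. The members and the 25 gene lists were chosen with earlier results of these data known. Named genes were up to 12 per direction with the largest difference among shared genes without overlap in either lineage and a mean of at least 5 FPKM on the higher side in both, without pseudogene, predicted, snoRNA or microRNA names, then up to 4 shared members per list, up to 4 per orientation with opposite calls, and 14 genes named whatever their result. Some genes that the rule names are not reported here. Any other is marked as outside the rule or as chosen with its values known.

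Alternatives were a pseudocount of 0.1, no filter, a filter of 5 FPKM, quantile and upper quartile scaling, predicted names left out, quality weights, a replicate block, other model terms, a 2-fold minimum, subsets of libraries and each library left out. A correction for GC content and transcript length, from the GENCODE annotation by symbol for 13387 genes (99.9%), was added after seeing the data. GC content and length were those of the longest annotated transcript of each symbol, whatever its class, which may not be the one expressed. Depth is unknown without counts. Figures were drawn with matplotlib 3.10.9, pandas 2.3.3 and numpy 2.4.6 under Python 3.11.15.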

Additional observations from a re-analysis of the deposited data

Results flagged for a closer look

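Of 12 sets tested for a library far from the rest (6 measures over the 8 assembled and the 8 lone libraries), 1 held such a library: the correlation of deviation with transcript length was -0.36 in replicate 1 of TSC alone with BMP4, against 0.07 to 0.27 in the other 7 lone libraries. Chance marks about 1 in 20 groups in this way.

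In 6 named genes the assembly difference in the TSC lineage departed from that in the iPSC lineage by limma's test of the difference itself. The TSC minus iPSC difference was 3.10 ± 0.53 for Pdk1 (adjusted p = 0.0304), 1.60 ± 0.26 for Ldha (0.0304), 1.24 ± 0.23 for Gpi1 (0.049) and 1.90 ± 0.36 for Rbpms (0.0498). It was -4.39 ± 0.75 for Anxa1 (0.0304), a phospholipid binding protein with 1, 3.53, 0.166 and 1.46 FPKM in the assembled TSC parts and 65.5, 77.7, 6.51 and 21.1 FPKM in TSC alone, and 0.678 to 3.13 FPKM in the assembled iPSC parts and 0 to 0.801 FPKM in iPSC alone. It was -2.80 ± 0.53 for Lgals1 (0.049), the secreted lectin galectin-1, with 521, 731, 1111 and 805 FPKM in the assembled iPSC parts and 227, 139.7, 183 and 266 FPKM in iPSC alone, and 667 to 1468 FPKM in the assembled TSC parts and 1001 to 4055 FPKM in TSC alone. Anxa1 and Lgals1 were named after their values were seen, and the causes were not tested.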

How the results depend on the processing

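The number of shared genes was 644 with a 2-fold minimum, which by construction counts fewer genes. It was 1774 with only the libraries without BMP4 and 485 with only those with BMP4, from 8 libraries each. The assembly count was 644, 1774 and 485 in the same settings and 5075 with library quality weights. Without single libraries the assembly count ran from 2557 to 3990 and the shared count from 2552 to 3972, lowest without replicate 1 of iPSC alone with BMP4 and highest without replicate 1 of TSC alone with BMP4. Of the 3320 shared genes, 2341 (622 higher, 1719 lower) were shared in all 16 omissions. Genes that passed in both lineages numbered 198 with no filter, 923 with 8 group means, 762 with a lineage by BMP4 term, 181 with a 2-fold minimum, 0 with only the libraries with BMP4 and 62 without the pair of libraries with genes of the other lineage, and 99 to 1174 without single libraries. The lineage by assembly count was 0 with a pseudocount of 0.1, 38 with no filter, 13 with quantile normalization, 0 with upper quartile rescaling, 57 with quality weights, 557 with 8 group means, 167 with a lineage by BMP4 term, 540 and 5 with only the libraries without and with BMP4, 0 without that pair, 10 with the GC and length correction, and 0 to 217 without single libraries. The BMP4 by assembly count was 19 with 8 group means and 0 to 6 without single libraries. The causes were not tested.

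Replicate numbers did not pair the samples: of 28 pairs of groups, 2 had a correlation of same-numbered deviations over 0.1 (-0.18 to 0.12). With a replicate block the shared count was 3176 and the lineage by assembly count 13. Elf5, Esrrb, Fos, Plac8, Spry1, Cdh1, Dlx3, H2-D1, Klf5, Lefty1, Tm7sf2, Kdr, Axl and Nkd2 were among the named genes that lost their call in some omissions of a library, and Plaur in 2, while none of the named genes reversed. The endothelial and blood list gave no value at 5 FPKM. The GC and length correction was chosen after seeing the data. Unknown depth limits the low genes most.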
